A study of Mus musculus with 30 samples.

Results

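Open chromatin was compared between naive CD4 T cells of mice carrying a PKA knockout (KO) and naive CD4 T cells of control mice (WT). The 3 KO and 3 WT ATAC-seq libraries make up 6 of the 30 libraries of the study, which also held RNA-seq of naive, activated and forskolin-treated cells and ATAC-seq of activated cells. The cells came from spleen and lymph nodes, were enriched with a CD4 kit and sorted as naive cells, and were profiled without culture. Both genotypes passed through the same enrichment and sort. The labels name neither the deleted gene nor the driver of its deletion, and give no age, strain or number of animals per library. The p-values therefore measure the spread between these samples, which may be technical in part. For comparison, 3 KO and 3 WT ATAC-seq libraries of cells activated for 3 days with antibodies to CD3 and CD28, and 3 KO and 3 WT RNA-seq libraries of naive cells, were used.

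PKA is the kinase that cyclic AMP switches on: cyclic AMP binds its regulatory subunits and frees the catalytic subunits, which phosphorylate many proteins, among them the transcription factor CREB. CREB binds the cyclic AMP response element (CRE) in gene promoters and calls on the CRTC and CBP/p300 coactivators. Among its known targets are genes that limit the signal itself, such as the phosphodiesterases, which break down cyclic AMP, and Crem, which encodes a CREB relative with repressor forms. In T cells, cyclic AMP is known to restrain signalling from the antigen receptor. ATAC-seq counts the cuts that a transposase makes in accessible DNA, so that active promoters and enhancers appear as sites with many reads.

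The promoters below are shown because their sites changed between the genotypes, and because they carry the letters that set the lower promoters apart in the comparison of motifs further on. They were chosen after their values were seen. Each is the RefSeq promoter sequence of the GRCm38.p6 build, the 250 bases before the gene's start, written 5′ to 3′ along the gene's strand. In the first 4, which had lower counts in KO cells, capitals mark the core of the CRE, TGACG or its reverse complement. The last 2 had higher counts in KO cells. Their capitals mark 2 copies of TTTC with 2 bases of any kind between them, or the reverse complement. That is the shape of the element bound by interferon regulatory factors.
Nr4a1, chr15:101266596-101266845, plus strand: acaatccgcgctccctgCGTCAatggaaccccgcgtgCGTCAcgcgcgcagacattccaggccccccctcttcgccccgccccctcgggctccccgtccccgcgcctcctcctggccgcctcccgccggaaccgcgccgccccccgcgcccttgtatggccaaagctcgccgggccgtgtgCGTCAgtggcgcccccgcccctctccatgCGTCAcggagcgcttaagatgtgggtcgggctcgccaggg
Nr4a3, chr4:48045055-48045304, plus strand: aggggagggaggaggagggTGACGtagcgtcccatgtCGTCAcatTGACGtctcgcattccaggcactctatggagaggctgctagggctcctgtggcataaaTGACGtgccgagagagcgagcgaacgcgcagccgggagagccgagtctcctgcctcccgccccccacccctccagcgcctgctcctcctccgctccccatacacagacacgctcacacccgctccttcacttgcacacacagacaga
Aff4, chr11:53350517-53350766, plus strand: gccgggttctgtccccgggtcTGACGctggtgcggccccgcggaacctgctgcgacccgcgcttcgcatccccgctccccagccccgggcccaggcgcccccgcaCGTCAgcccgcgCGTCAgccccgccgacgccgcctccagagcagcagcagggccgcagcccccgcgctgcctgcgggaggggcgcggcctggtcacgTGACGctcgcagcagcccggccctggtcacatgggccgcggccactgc
Rgs2, chr1:144004150-144004399, minus strand: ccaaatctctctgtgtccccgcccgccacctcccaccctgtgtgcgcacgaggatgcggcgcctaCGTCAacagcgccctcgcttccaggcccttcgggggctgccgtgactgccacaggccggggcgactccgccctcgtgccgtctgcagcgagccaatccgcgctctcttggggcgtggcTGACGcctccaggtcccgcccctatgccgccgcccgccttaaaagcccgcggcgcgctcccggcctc
Gm38326, chr3:60788111-60788360, plus strand: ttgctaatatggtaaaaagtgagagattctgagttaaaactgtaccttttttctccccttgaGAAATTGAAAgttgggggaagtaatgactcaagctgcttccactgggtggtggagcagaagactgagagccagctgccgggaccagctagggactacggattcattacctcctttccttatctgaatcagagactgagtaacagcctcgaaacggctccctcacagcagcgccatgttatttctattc
Ifi214, chr1:173535958-173536207, minus strand: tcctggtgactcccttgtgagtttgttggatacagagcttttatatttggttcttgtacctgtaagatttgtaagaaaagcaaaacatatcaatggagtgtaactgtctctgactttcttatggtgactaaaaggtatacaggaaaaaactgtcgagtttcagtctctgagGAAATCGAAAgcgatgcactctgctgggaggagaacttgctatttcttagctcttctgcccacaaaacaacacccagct

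The naive libraries held 18522373 to 23858964 counts in 110808 deposited sites, of which 110684 span 400 bp, on the mm10 build. Levels are given as CPM, read counts divided by the scaled size of the library as edgeR does. Across the 74371 sites that passed the count filter, log2(CPM + 1) correlated at Pearson r between 0.990 and 0.992 within a genotype and between 0.986 and 0.991 across genotypes. Replicate 1 of both genotypes stood apart from replicates 2 and 3: the X chromosome held 1.87% of its counts in the KO library and 1.88% in the WT library, against 1.94% to 1.97% in the others. In the RNA libraries with the same number, Xist had 4 counts in KO replicate 1 and 1 count in WT replicate 1, and at least 2354 in replicates 2 and 3. Ddx3y, a gene of the Y chromosome, had 891 counts in KO replicate 1 and 1049 in WT replicate 1, and at most 1 in replicates 2 and 3. By these genes, RNA replicate 1 was male and RNA replicates 2 and 3 were female in each genotype. The labels do not say whether the ATAC libraries share these animals.

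In naive cells, 1565 of 74371 tested sites (2.1%) passed edgeR's quasi-likelihood test at a Benjamini-Hochberg adjusted p of 0.05. Of these, 607 sites (0.816% of those tested) were higher in KO cells and 958 (1.29%) were lower. With the replicate number as a block, 3023 sites were higher and 3148 lower, among them all 1565. In every called site the 3 KO values lay wholly above or wholly below the 3 WT values, which was also so in 17.2% of all tested sites. The median log2 fold change was 0.80 in the higher sites and -0.60 in the lower sites, and 210 higher and 140 lower sites changed by at least 1 on the log2 scale. Leaving out KO replicate 3 left 153 higher and 397 lower sites, and leaving out KO replicate 2 gave 1009 higher and 1198 lower; 490 sites, 137 higher and 353 lower, passed in every fit without 1 library, and none changed sign. Fitted jointly with the activated libraries, the naive comparison gave 1039 higher and 672 lower sites, with the median of all sites at 0.07 on the log2 scale.

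**Figure D1:**
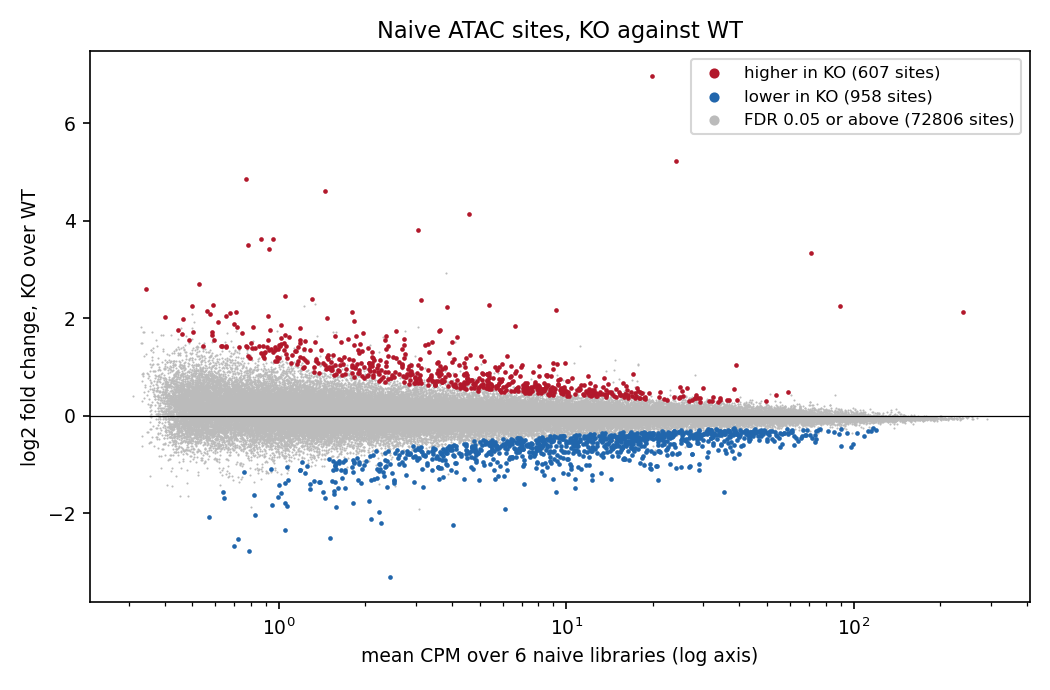
Log2 fold change (KO over WT, vertical axis) of each of the 74371 tested naive ATAC sites against its mean CPM over the 6 naive libraries (horizontal log axis); red and blue points are sites past an adjusted p of 0.05. Of the 607 higher sites, 238 lie at 1 to 4 CPM and 259 at 4 to 16 CPM; of the 958 lower sites, 406 lie at 4 to 16 CPM and 356 at 16 to 64 CPM.

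Higher sites had a median of 5.59 CPM in KO cells and 3.12 CPM in WT cells, while lower sites had a median of 9.65 CPM in KO cells and 14.8 CPM in WT cells. Among sites of 16 to 64 CPM, 2.72% were lower and 0.466% higher; among sites of 1 to 4 CPM, 0.599% were lower and 0.902% higher. The median of all sites moved with strength as well, at 0.14 on the log2 scale under 1 CPM and -0.05 over 64 CPM. Of the 9303 sites at promoter windows, 0.269% were higher and 0.505% lower, against 0.842% and 1.48% of the 43366 sites in gene spans outside promoter windows. These shares are descriptions, given without a test.

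Of all tested sites, the largest rise was inside Cd4, which encodes the coreceptor that defines these cells. Of 11 tested sites within 10 kb of Cd4, 4 were higher and 0 lower. The site at chr6:124879828-124880228 had 38.2, 49.4 and 30.9 CPM in KO libraries, against 0.308, 0.208 and 0.445 CPM in WT libraries (log2 fold change 6.97 ± 0.29 SE, adjusted p = 4.97e-06). It was nearly closed in every WT library and open in every KO library. At chr6:124883400-124883800 the KO libraries held 49.4, 54.3 and 36.8 CPM and the WT libraries 1.14, 1.21 and 1.45 CPM (5.22 ± 0.18, adjusted p = 4.33e-08). The strongest site of the gene, chr6:124885164-124885564, had 427, 371 and 377 CPM in KO libraries and 90.8, 82.6 and 96.5 CPM in WT libraries (2.12 ± 0.08, adjusted p = 2.2e-10). Another site of the gene, chr6:124888030-124888430, averaged 129.6 ± 7.22 CPM in KO libraries and 12.9 ± 0.709 CPM in WT libraries (SD, n = 3 each). Beside them, a site next to Lag3, the gene of an inhibitory receptor, averaged 147.8 ± 9.89 CPM in KO libraries and 31.2 ± 1.43 CPM in WT libraries (chr6:124900477-124900877, 2.25 ± 0.07, adjusted p = 3.37e-11). KO and WT ranges were far apart at all 5 sites. RNA did not follow: Cd4 had 1006, 1053 and 1034 CPM in naive KO RNA libraries and 1049, 1158 and 1057 CPM in naive WT RNA libraries (-0.08 ± 0.07, adjusted p = 1). In ATAC counts, more copies of a sequence and more accessible copies cannot be told apart, and the labels do not name the driver of the deletion.

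**Figure D2:**
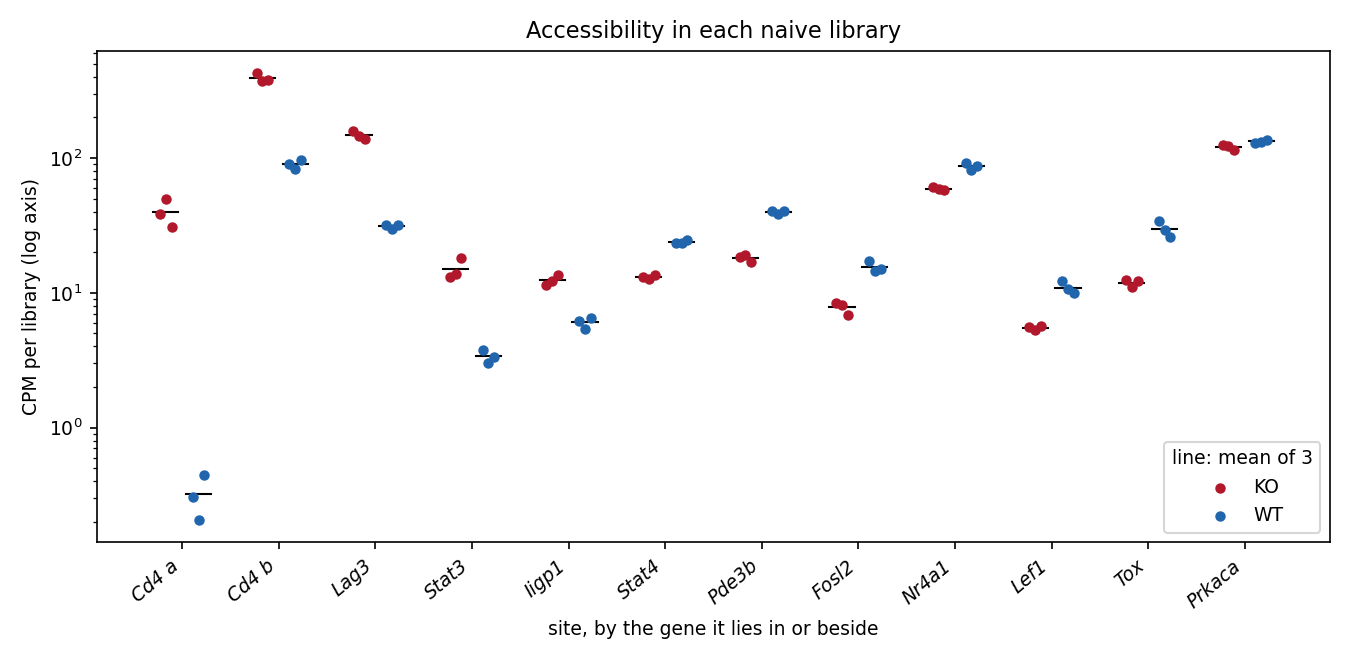
CPM in each naive ATAC library (log axis) at 12 sites, with KO libraries in red left of WT libraries in blue and a line at each mean of 3; Cd4 a is the site with the largest rise and Cd4 b the strongest site of that gene. KO and WT values do not overlap at any site shown, which holds for every called site and for 17.2% of all tested sites. The Prkaca promoter site, at 114 to 126 CPM in KO and 129 to 136 CPM in WT, did not pass the test.

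Near the genes of PKA itself, 1 site was called. Of 134 tested sites within 10 kb of 15 genes for PKA subunits and inhibitors, 0 were higher and 1 (0.746%) was lower, against 0.816% and 1.29% of all sites. With the replicate block, 8 were higher and 7 lower, against 3023 and 3148 of all 74371 tested sites. At an unadjusted p of 0.05, edgeR gave 12 higher and 9 lower, against 4903 and 4490 of all tested sites. DESeq2 called 0 higher and 1 lower, against 363 and 753 of all tested sites. The promoter of Prkaca, the catalytic subunit alpha gene, had 126, 124 and 114 CPM in KO libraries and 129, 133 and 136 CPM in WT libraries (chr8:83972616-83973016, -0.13 ± 0.06, adjusted p = 0.42). Its RNA, by contrast, was at 2.08, 2.55 and 2.65 CPM in naive KO libraries and 36.4, 41.1 and 32.1 CPM in naive WT libraries (-3.91 ± 0.16, adjusted p = 1.64e-10). None of the 4 tested sites near Prkaca passed. The called site was in Prkacb, which encodes the catalytic subunit beta, at 3.09 ± 0.771 CPM in KO libraries and 5.51 ± 0.72 CPM in WT libraries (chr3:146766616-146767016, adjusted p = 0.0174); it did not pass without KO replicate 1, KO replicate 3 or WT replicate 2. The Prkacb promoter averaged 38.9 ± 0.978 CPM in KO libraries and 41.3 ± 0.659 CPM in WT libraries (adjusted p = 0.648).

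Near known CREB targets, 17 sites fell and 5 rose. Of 258 tested sites near 34 genes of the list, 17 (6.59%) were lower, against 1.29% of all sites, and 5 (1.94%) were higher, against 0.816%. The list's median log2 fold change was -0.07. With the replicate block, 45 sites were lower and 12 higher. Leaving out 1 library at a time gave 9 to 24 lower sites, with the fewest without KO replicate 3, and 1 to 7 higher sites, with the fewest without WT replicate 1. The lower sites were spread over 10 genes: Pde3b, Pde4a, Pde4b and Pde4d, which encode phosphodiesterases, Fosl2 and Junb, which encode AP-1 proteins, the orphan nuclear receptor genes Nr4a1 and Nr4a3, the clock gene Per1, and Rgs2, which encodes a regulator of G-protein signalling. The higher sites lay near Gem, a small GTPase gene with 2, and near Pde4b, Per2 and Pfkfb3.

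Pde3b encodes a phosphodiesterase that degrades cyclic AMP, and 5 of its 12 tested sites were lower and 0 higher. The site at chr7:114494054-114494454, within the gene, had 18.5, 19.2 and 16.9 CPM in KO libraries and 40.1, 38.2 and 40.7 CPM in WT libraries (-1.12 ± 0.07, adjusted p = 6.53e-07). The site at chr7:114419373-114419773, also within the gene, had 0.528, 0.946 and 0.826 CPM in KO libraries and 2.9, 3.53 and 3.79 CPM in WT libraries (-2.12 ± 0.22, adjusted p = 6.98e-05). Both sets of KO values lay below all WT values, as in every site called lower. The strongest site of the gene changed less: chr7:114479762-114480162 averaged 66.9 ± 7.76 CPM in KO libraries and 75.1 ± 3.96 CPM in WT libraries (-0.17 ± 0.08, adjusted p = 0.411, and 0.0472 with the replicate block). Near Fosl2, outside the gene span, a site 2739 bp from the annotated start had 8.45, 8.11 and 6.86 CPM in KO libraries and 17.2, 14.6 and 15.1 CPM in WT libraries (chr5:32133533-32133933, -1.01 ± 0.11, adjusted p = 7.81e-05). Both tested sites near Fosl2 were lower. The Nr4a1 promoter, whose sequence is printed above, had 61.2, 59.4 and 57.5 CPM in KO libraries and 91.8, 81.0 and 87.8 CPM in WT libraries (chr15:101266575-101266975, -0.55 ± 0.07, adjusted p = 0.000234). Nr4a1 is a gene that T cells switch on quickly when the antigen receptor is engaged.

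Among 114 tested sites near 12 genes of the CREB family and its coactivators, 4 (3.51%) were lower and 1 (0.877%) was higher. Crem had 2 of the lower sites, both within the gene: chr18:3270710-3271110 at 6.39, 5.99 and 5.41 CPM in KO libraries and 8.36, 10.8 and 10.1 CPM in WT libraries (-0.72 ± 0.12, adjusted p = 0.00382), and chr18:3280887-3281287 at 40.05 ± 1.2 CPM in KO libraries and 50.9 ± 1.45 CPM in WT libraries (-0.35 ± 0.06, adjusted p = 0.00741). The higher site lay near Sik2. The other lower sites lay near Sik1, at chr17:31840457-31840857 (-0.41 ± 0.07, adjusted p = 0.00639), and at the Sik3 promoter, at chr9:46012490-46012890 (-0.43 ± 0.08, adjusted p = 0.0107). SIK kinases hold the CRTC coactivators of CREB in the cytoplasm and are themselves substrates of PKA. The first Crem site missed the threshold without KO replicate 3, the second without KO replicate 3 or WT replicate 1, and the Sik3 site without KO replicate 1 or 3. With the replicate block the list had 4 lower and 5 higher sites.

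Promoters with lower counts in KO cells often held the CRE core. Sites called lower overlapped 52 RefSeq promoter windows, 250 bases before to 50 after a start, of which 34 (65.4%) held TGACG on either strand; of the 27 windows with sites called higher, 1 (3.70%) held it. It was present in 3840 of 11528 windows (33.3%) with a tested site, and in 20.8% of all 32851 RefSeq windows outside chromosome 18. Counting only windows whose site averaged at least 20 CPM, a choice made after seeing the data, the share was 77.4% in the 31 lower windows and 38.7% in the 7797 tested windows. The full element TGACGTCA, which contains the core, was in 7.69% of lower windows, 0% of higher windows and 3.55% of all tested windows. The windows also differed in base composition: the median GC content was 55.2% in lower windows, 47.0% in higher windows and 61.7% in all tested windows, with a median of 10, 3 and 22 CpG dinucleotides. The part of base composition in these shares was not tested. A match describes letters in the window and not binding.

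The other CRE promoters printed above changed less than that of Nr4a1. At the Nr4a3 promoter the KO libraries held 51.1, 55.4 and 48.0 CPM and the WT libraries 67.5, 65.2 and 66.6 CPM (-0.37 ± 0.07, adjusted p = 0.00739). The promoter of Aff4, which encodes a scaffold of a transcription elongation complex, had 44.4, 44.8 and 43.5 CPM in KO libraries and 59.1, 54.8 and 54.8 CPM in WT libraries (-0.35 ± 0.06, adjusted p = 0.00734). At the Rgs2 promoter the values were 111, 111 and 101 CPM in KO libraries and 131, 129 and 134 CPM in WT libraries (-0.29 ± 0.06, adjusted p = 0.0231). In each promoter all 3 KO values lay below all 3 WT values, as in every site called lower. The Nr4a1 site passed in every fit without 1 library, those of Nr4a3 and Aff4 missed the threshold without KO replicate 3 or WT replicate 1, and that of Rgs2 passed only without KO replicate 1 or 2. In the 250 bases printed above, Nr4a1, Nr4a3 and Aff4 hold 4 copies of the core each, and Rgs2 holds 2. RNA of these 4 genes did not pass in naive cells. Its log2 fold changes were -0.36 ± 0.15 for Nr4a1, -0.55 ± 0.13 for Nr4a3, -0.10 ± 0.07 for Aff4 and -0.40 ± 0.21 for Rgs2.

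The interferon pattern showed the opposite distribution. Paired TTTC with a gap of 2 bases was in 4 of 27 higher windows (14.8%), 0 of 52 lower windows and 3.00% of all tested windows, counted on both strands. The 4 windows belong to Gm38326, Ifi214, Gzma and Rarg. At the Gm38326 promoter the KO libraries held 5.81, 5.18 and 6.07 CPM and the WT libraries 0.44, 0.166 and 0.668 CPM (chr3:60787994-60788394, 3.80 ± 0.26, adjusted p = 8.8e-07). Ifi214, a member of the interferon-activated gene family on chromosome 1, had 10.7, 8.78 and 9.46 CPM in KO libraries and 5.46, 5.49 and 7.8 CPM in WT libraries at its promoter (0.64 ± 0.14, adjusted p = 0.0215), and passed only without KO replicate 2 or WT replicate 3. The AP-1 pattern TGANTCA was in 13.5% of lower windows, 14.8% of higher windows and 4.94% of all tested windows, and the STAT pattern TTCNNNGAA in 3.85%, 11.1% and 6.75%.

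Genes that interferons induce had mainly higher sites in KO cells. Of 113 tested sites near 26 such genes, 13 (11.5%) were higher, against 0.816% of all sites, and 1 (0.885%) was lower. The list's median log2 fold change was 0.19. With the replicate block, 27 sites were higher and 1 lower, and leaving out 1 library at a time gave 6 to 16 higher, with the fewest without KO replicate 3, and 0 lower. The higher sites lay near 8 genes: Iigp1, Irgm1, Igtp, Gbp10, Gbp11, Mx1, Irf1 and Usp18, most of which encode GTPases that act against intracellular pathogens; the lower site was the promoter of Irf7. All 4 tested sites near Iigp1, an interferon-inducible GTPase gene, were higher. They lie at 60 to 61 Mb of chromosome 18, where a difference in strain sequence and a difference in accessibility cannot be told apart. Of 28 genes of the list tested for RNA in naive cells, 1 was higher, which was Iigp1, and 0 were lower. The strongest Iigp1 site, chr18:60375723-60376123, had 11.5, 12.3 and 13.7 CPM in KO libraries and 6.2, 5.4 and 6.52 CPM in WT libraries (1.06 ± 0.11, adjusted p = 7.13e-05). At chr18:60373332-60373732 the values were 4.91, 4.86 and 6.9 CPM in KO libraries and 1.85, 1.62 and 1.5 CPM in WT libraries (1.74 ± 0.18, adjusted p = 6.04e-05). The lowest KO value was above the highest WT value at both, as in every site called higher.

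**Figure D3:**
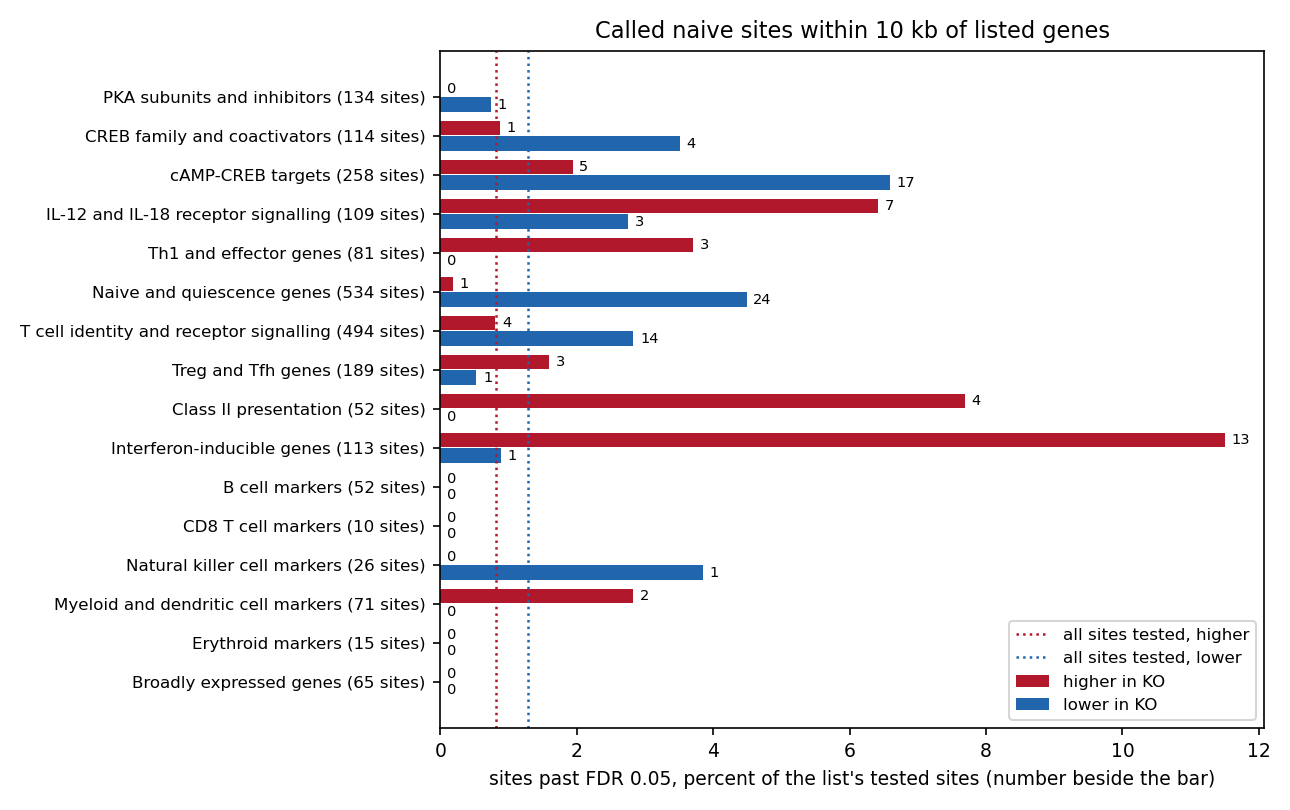
Share of tested naive sites within 10 kb of the genes of each of 16 lists that passed the test (horizontal axis, percent), higher in KO in red above lower in KO in blue, with the number of sites beside each bar; dotted lines mark the shares among all tested sites, 0.816% higher and 1.29% lower. Interferon-inducible genes have the highest share of higher sites at 11.5%, and cAMP-CREB targets the highest share of lower sites at 6.59%.

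Receptor signalling genes of the IL-12 and IL-18 pathways changed in both directions. Of 109 tested sites, 7 (6.42%) were higher and 3 (2.75%) lower; with the replicate block these were 15 and 5. Stat3, which encodes a transcription factor that cytokine receptors activate, had 2 higher sites of 12. Inside Stat3, the site at chr11:100904865-100905265 had 13.2, 13.7 and 18.1 CPM in KO libraries and 3.74, 3.03 and 3.34 CPM in WT libraries (2.16 ± 0.14, adjusted p = 6.73e-07). The KO values stood several-fold above the WT values. Its RNA in naive cells did not pass, with a log2 fold change of 0.03 ± 0.08 (adjusted p = 1). The lower sites lay near Il12rb2, Socs3 and Stat4, which encodes the factor that IL-12 activates. The Stat4 site, 357 bp from the annotated start, had 12.99, 12.7 and 13.5 CPM in KO libraries and 23.4, 23.4 and 24.5 CPM in WT libraries (chr1:52008397-52008797, -0.86 ± 0.08, adjusted p = 1.53e-05). KO libraries were almost uniformly low there.

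The promoter site, or for genes without one the strongest site in the gene, did not pass at Il12rb1, Il12rb2, Stat4, Tbx21 or Ifng. At the Il12rb2 promoter, of the inducible chain of the IL-12 receptor, KO libraries averaged 8.21 ± 0.785 CPM and WT libraries 9.74 ± 0.78 CPM (adjusted p = 0.35). The strongest site in Il12rb1, of the constant chain, averaged 19.4 ± 2.69 CPM in KO libraries and 18.5 ± 2.27 CPM in WT libraries (adjusted p = 0.856). The promoter of Tbx21, the gene of the Th1 master regulator T-bet, averaged 6.02 ± 0.411 CPM in KO libraries and 5.57 ± 0.663 CPM in WT libraries (adjusted p = 0.808). At the promoter of Ifng, the Th1 cytokine gene, the means were 0.841 ± 0.226 CPM in KO libraries and 0.675 ± 0.122 CPM in WT libraries (adjusted p = 0.713). The strongest Stat4 site averaged 58.1 ± 5.06 CPM in KO libraries and 51.4 ± 2.8 CPM in WT libraries (0.18 ± 0.07, adjusted p = 0.311, and 0.0359 with the replicate block). Of 81 sites near Th1 and effector genes, 3 (3.70%) were higher and 0 lower, and with the replicate block 6 were higher and 4 lower. They were 2 sites near Prdm1, the gene of the repressor Blimp-1, and the promoter of Gzma, a granzyme gene. All 3 missed the threshold without KO replicate 3, the stronger Prdm1 site (0.55 ± 0.11) also without KO replicate 1, and the Gzma promoter (0.54 ± 0.13) without KO replicate 1, WT replicate 1 or WT replicate 2 as well.

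Class II presentation genes had 4 higher sites of 52 (7.69%) and 0 lower ones, or 9 and 0 with the replicate block; without KO replicate 3 or WT replicate 3 there was 1 higher. Cd74, which encodes the invariant chain that escorts class II molecules, had 8.03, 7.48 and 10.6 CPM in KO libraries and 4.4, 4.45 and 5.18 CPM in WT libraries at chr18:60803523-60803923 (0.91 ± 0.14, adjusted p = 0.00226). Its strongest site averaged 12.9 ± 1.22 CPM in KO libraries and 11.5 ± 0.942 CPM in WT libraries and did not pass (adjusted p = 0.563). The sites near H2-Oa, H2-DMb1 and the H2-DMb2 promoter rose by 0.43 to 0.50 on the log2 scale and each missed the threshold in at least 4 of the 6 fits without 1 library. Class II genes are mainly expressed by B cells, dendritic cells and macrophages. The 52 tested sites near 14 B cell marker genes had 0 higher and 0 lower, with their summed level at 506 to 529 CPM in KO libraries and 502 to 526 CPM in WT libraries. With the replicate block 2 were higher and 1 lower, and DESeq2 called 0. At an unadjusted edgeR p of 0.05 there were 3 of each, against 4903 higher and 4490 lower among all 74371 tested sites. Of 71 sites near myeloid and dendritic cell markers, 2 (2.82%) were higher, 1 in Zbtb46 (0.82 ± 0.15) and 1 between Itgam and Itgax (0.37 ± 0.09), and the list's summed level was 814 to 836 CPM in KO libraries and 813 to 826 CPM in WT libraries. The Zbtb46 site missed the threshold without KO replicate 3, and the other in 5 of the 6 fits without 1 library.

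Markers of other cell types were summed in the same way. Sites near Cd8a and Cd8b1, of the CD8 coreceptor, summed to 62.4 to 65.7 CPM in KO libraries and 54.2 to 58.4 CPM in WT libraries, so that the ranges did not overlap, with 0 of 10 called and a median log2 fold change of 0.26; with the replicate block 1 was higher, at an unadjusted edgeR p of 0.05 there were 4 higher and 0 lower, and DESeq2 called 0. Natural killer cell markers summed to 274 to 286 CPM in KO and 265 to 292 CPM in WT, with 1 of 26 sites called, a lower site near Il2rb, which encodes a chain of the IL-2 and IL-15 receptors (-0.86 ± 0.14). Erythroid markers had 0 of 15 and broadly expressed genes 0 of 65 sites called by edgeR and by DESeq2. At an unadjusted edgeR p of 0.05 the erythroid list had 1 higher and 0 lower, and the broad list 6 higher and 2 lower. Among all 74371 tested sites, that threshold gave 4903 higher and 4490 lower. Sites near markers are not specific to a cell type, and the part that other cells had in the results above was not tested.

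Naive and quiescence genes had mainly lower sites in KO cells. Of 534 tested sites near 23 genes, 24 (4.49%) were lower, against 1.29% of all sites, and 1 (0.187%) was higher. The median of the list was -0.06 on the log2 scale. With the replicate block, 77 were lower and 14 higher; leaving out 1 library at a time gave 5 to 31 lower and 1 to 5 higher sites, with the fewest lower sites without KO replicate 3. Lef1, which encodes a transcription factor of naive and stem-like T cells, had 6 lower sites of 44. Its site at chr3:131170234-131170634 had 5.55, 5.31 and 5.66 CPM in KO libraries and 12.2, 10.6 and 9.91 CPM in WT libraries (-0.99 ± 0.11, adjusted p = 0.000128). Bach2, the gene of a repressor of effector programmes, had 6 lower of 87. Foxp1, which encodes a factor that keeps naive cells quiescent, had 4 lower of 116, among them chr6:99322527-99322927 at 6.07, 6.53 and 6.61 CPM in KO libraries and 12.6, 13.2 and 10.6 CPM in WT libraries (-0.92 ± 0.11, adjusted p = 0.000204). Foxo1 and Ets1 had 2 lower sites each, and Ccr7, Klf3, Satb1 and Txnip 1 each. The higher site was near Txnip, an inhibitor of glucose uptake, at 23.8, 23.5 and 26.6 CPM in KO libraries and 17.5, 18.5 and 16.9 CPM in WT libraries (0.48 ± 0.08, adjusted p = 0.00365). RNA of the 9 genes did not pass in naive cells, with Lef1 at 441.6 ± 24.6 CPM in KO libraries and 523 ± 51.2 CPM in WT libraries (-0.25 ± 0.07, adjusted p = 0.358).

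Among genes of T cell identity and receptor signalling, 14 of 494 sites (2.83%) were lower and 4 (0.810%) higher, all 4 of the higher ones at Cd4. With the replicate block, 38 were lower and 18 higher, and without KO replicate 3 the lower sites numbered 3. The lower sites belonged to 10 genes with 1 or 2 each, among them Cd247, of the receptor zeta chain, Cblb, a ubiquitin ligase that damps receptor signals, and Bcl11b, a factor of T cell commitment. The largest drop was inside Tox, the gene of a factor needed for CD4 lineage development: chr4:6975699-6976099 had 12.5, 11.0 and 12.1 CPM in KO libraries and 34.2, 29.3 and 25.9 CPM in WT libraries (-1.33 ± 0.10, adjusted p = 2.93e-06). Of the 43 tested sites near Tox it was the only one called. Of 189 sites near Treg and Tfh genes, 3 (1.59%) were higher and 1 (0.529%) lower, or 16 and 7 with the replicate block; without 1 library the higher sites numbered 1 to 8, with the fewest without KO replicate 3 and the most without KO replicate 2. The higher sites were 2 near Lag3 and an Ikzf2 site at 2.91 ± 0.569 CPM in KO libraries and 1.49 ± 0.223 CPM in WT libraries (0.98 ± 0.20, adjusted p = 0.0164), which missed the threshold without KO replicate 3 or WT replicate 1. The Lag3 sites lie in the same 1 Mb window as the higher Cd4 sites, where more copies and more accessible copies cannot be told apart.

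Some windows of the chromosomes held many called sites. Of 2072 windows of 1 Mb with a tested site, 42 held at least 5 called sites, which were all higher in 5 windows, all lower in 15 and mixed in 22. Windows with many tested sites have more chances to reach 5, as 2.1% of all tested sites were called. Whether the number of such windows exceeds that was not tested. The fullest, at 60 to 61 Mb of chromosome 3, held 22 higher sites of 70 tested and 0 lower. They lie around Mbnl1, which encodes an RNA-splicing factor, and the unnamed models Gm38326 and Gm553061. At chr3:60765094-60765494, between genes, KO libraries held 2.59, 2.93 and 2.81 CPM and WT libraries 0, 0.166 and 0.167 CPM (4.61 ± 0.38, adjusted p = 4.97e-06). The window at 60 to 61 Mb of chromosome 18 held 14 higher sites of 72 and 0 lower, around Iigp1, Cd74 and the predicted interferon-inducible GTPase genes Gm4951, Gm4841 and F830016B08Rik. In Gm4841, chr18:60273165-60273565 had 7.29, 7.3 and 11.5 CPM in KO libraries and 0.572, 0.374 and 0.557 CPM in WT libraries (4.13 ± 0.25, adjusted p = 9.38e-07). At 11 to 12 Mb of chromosome 19, 11 of 91 sites were higher and 0 lower, around Ms4a4c, Ms4a6b and Ms4a6c, of a family of membrane proteins, and AW112010, by 0.37 to 0.86 on the log2 scale. Without the Cd4 region and the windows on chromosomes 3 and 18, a check added after seeing the data, 1520 called sites remained. A difference in strain sequence and a difference in accessibility cannot be told apart in these counts.

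Other windows held mainly lower sites. At 121 to 122 Mb of chromosome 14, 10 of 115 sites were lower and 0 higher, around Dock9, Farp1, Ubac2 and Gpr183, which encodes an oxysterol receptor that guides lymphocyte migration, with a median of -0.53. The window at 114 to 115 Mb of chromosome 7, with Pde3b and Rras2, held 8 lower sites of 65, and that at 131 to 132 Mb of chromosome 3 held 7 lower sites of 71, in and around Lef1. Windows around Itpkb and Acbd3 on chromosome 1, and around Bach2 and Ankrd6 on chromosome 4, held 6 lower and 2 higher sites each, of 110 and 135 tested.

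Several of the deepest drops were at weak sites far from gene starts. At chr15:68965224-68965624 in Khdrbs3, an RNA-binding protein gene, KO libraries held 0.370, 0.495 and 0.454 CPM and WT libraries 5.32, 4.57 and 3.4 CPM (-3.32 ± 0.24, adjusted p = 1.88e-06). On the X chromosome, the site chrX:136645933-136646333 in the Tceal3 span had 0.739, 1.67 and 1.69 CPM in KO libraries and 7.08, 5.99 and 7.02 CPM in WT libraries (-2.25 ± 0.20, adjusted p = 1.93e-05), and a second Tceal3 site fell by 2.20. KO values lay below WT values in every library at both, as in every site called lower. The remaining sites among the 10 deepest drops, whose gene or nearest start is Fam234a, Gm32990, Gm34974, Palld or Pthlh (with 2), had no more than 0.451 CPM on average in KO libraries and fell by 2.03 to 2.77. The Gm34974 site missed the threshold without KO replicate 3, and the second Pthlh site without KO replicate 1, KO replicate 3 or WT replicate 1.

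Where a gene passed the naive RNA test and had a called site, RNA and site changed the same way. Only 29 of 11980 tested genes (0.242%) passed the RNA test, 15 higher and 14 lower in KO cells. Of the 15 higher genes, 11 had a higher site within 10 kb and 0 a lower site; 3.08% of 11475 genes tested for RNA had a higher site. Of the 14 lower genes, 12 had a lower site and 0 a higher site, against 5.07% of genes with a lower site; 7.95% had a called site of either direction. Genes with many tested sites have more chances to hold a called one: the 15 higher genes had 82 tested sites, of which 27 were higher, and the 14 lower genes had 150, of which 26 were lower. Starting from the sites, 65.2% of the 330 genes with higher sites only had an RNA log2 fold change above 0, as had 29.7% of the 558 genes with lower sites only and 46.8% of all genes with a site. Only 11 of the 330 genes passed the RNA test, all higher, and 12 of the 558, all lower. Of the higher RNA genes, Iigp1, Cd74, Gm4841, Gm4951 and F830016B08Rik lie together in the window at 60 to 61 Mb of chromosome 18 described above. There, a difference in strain sequence and a difference in accessibility cannot be told apart. ATAC and RNA libraries carried the same replicate numbers, and the labels do not say whether they share animals.

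Pde3b and Fosl2 fell in both measures. Pde3b RNA was at 68.9, 89.0 and 78.3 CPM in KO libraries and 200.1, 275 and 262 CPM in WT libraries (-1.64 ± 0.12, adjusted p = 3.99e-06). Dusp10, which encodes a phosphatase of stress-activated kinases, fell to 53.2, 50.8 and 55.9 CPM in KO RNA libraries, against 69.3, 74.4 and 72.4 CPM in WT RNA libraries (-0.44 ± 0.08, adjusted p = 0.0287), and 5 of its 13 sites were lower. Rgs12, a regulator of G-protein signalling, rose to 12.7, 13.9 and 14.3 CPM in KO RNA libraries, against 7.57, 6.47 and 5.98 CPM in WT RNA libraries (1.02 ± 0.15, adjusted p = 0.00403), and 7 of its 11 sites were higher. Ppic, a cyclophilin gene, had 4 higher sites of 6, Zscan10 3 lower of 6 and Gm4951 3 higher of 3. The RNA-called genes with no called site were Prkaca and Plaur among the lower, and Izumo1r, Trim59, Racgap1 and Tns4 among the higher.

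**Figure D4:**
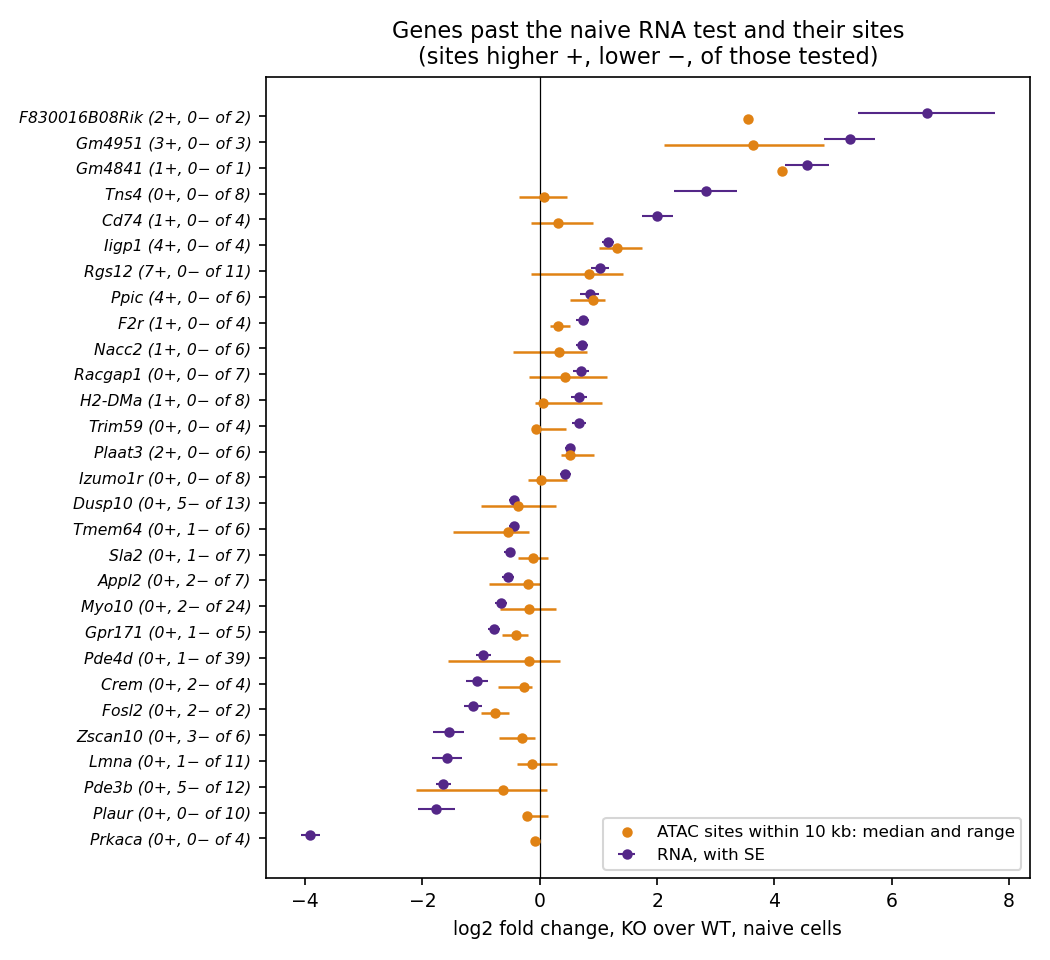
Log2 fold change (KO over WT, naive cells, horizontal axis) of the RNA with its SE in purple, and the median and range over the gene's tested ATAC sites within 10 kb in orange, for the 29 genes that passed the naive RNA test. Labels give the number of sites higher (+) and lower (−) of those tested; Prkaca, with RNA at -3.91, has 4 sites close to 0.

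After 3 days of activation many more sites differed between the genotypes, 37350 of 106123 (35.2%), of which 15.1% of those tested were higher and 20.1% lower in KO cells. Of the 580 sites higher in naive KO cells that were tested there, 289 (49.8%) were called higher again, which is 1.80% of all sites higher after activation, and 33 were called lower. Of 850 lower in naive KO cells, 493 (58.0%) were called lower again, 2.32% of all sites lower after activation, and 7 higher. The sign was the same at 79.5% of the higher and 89.5% of the lower sites. The difference between genotypes itself changed with activation at 5.58% of 110797 sites, 0.491% toward higher and 5.09% toward lower values in KO cells. The balance of directions depended on scaling: 544 sites went toward higher and 5638 toward lower with TMM, and 2132 and 5705 with library totals. The activated libraries are separate libraries from the naive ones, and played no part in choosing the sites. The labels do not say whether activated and naive libraries share animals. In the activated libraries the median log2 fold change was 0.32 at the sites higher in naive cells, which had a median of 0.80 there. At the lower sites it was -0.57, against -0.56 in naive cells.

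At a site in Tox and at 1 of the Pde3b sites described above the log2 difference was larger after activation. Both sites had far fewer CPM in both genotypes than in naive cells, and the gap in CPM between genotypes was smaller. The Pde3b site chr7:114494054-114494454 averaged 1.29 ± 0.231 CPM in activated KO libraries and 4.12 ± 0.44 CPM in activated WT libraries (-1.67, adjusted p = 5.66e-06; its difference from the naive change was -0.60 ± 0.17, adjusted p = 0.0461). At the other, chr7:114419373-114419773, the test of a change with activation did not pass (-0.89 ± 0.40, adjusted p = 0.229). The Tox site averaged 1.3 ± 0.189 CPM in activated KO libraries and 5.37 ± 0.146 CPM in activated WT libraries (-2.03, adjusted p = 2.29e-07; difference -0.76 ± 0.19, adjusted p = 0.0213). At Fosl2 the test of a change with activation did not pass, with 17.2 ± 1.07 CPM in activated KO libraries and 36.0 ± 3.62 CPM in activated WT libraries (-1.07, adjusted p = 1.11e-07; its difference from the naive change was -0.11 ± 0.14, adjusted p = 0.728). The Nr4a1 promoter had 54.1 ± 1.45 CPM in activated KO libraries and 74.8 ± 2.29 CPM in activated WT libraries (-0.47, adjusted p = 3.15e-07). The Gm38326 promoter, nearly closed in naive WT cells, stood at 63.5 ± 1.83 CPM in activated KO libraries and 35.6 ± 1.74 CPM in activated WT libraries (0.83, adjusted p = 5.55e-09).

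**Figure D5:**
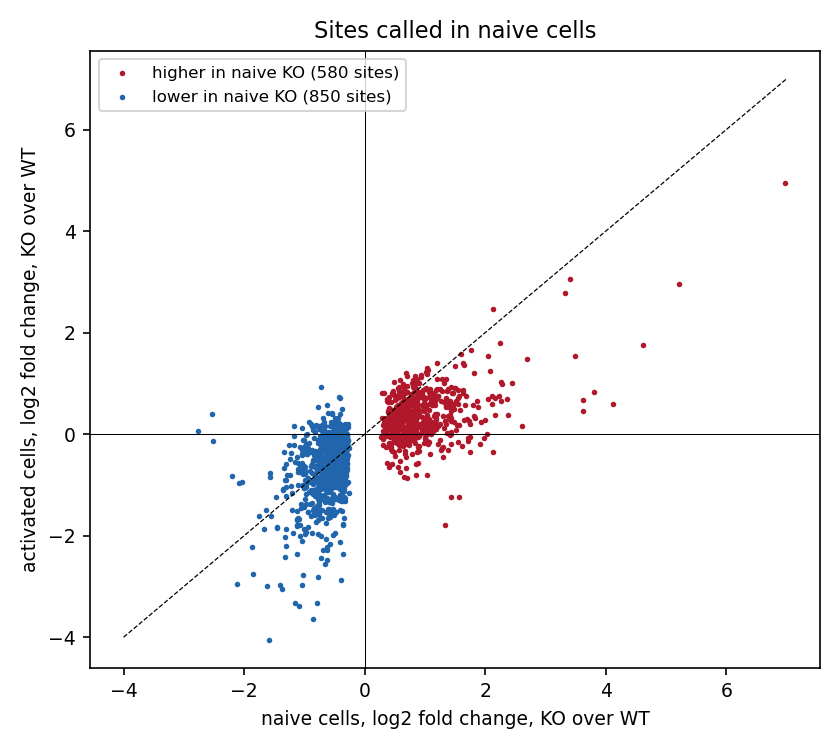
Log2 fold change (KO over WT) in naive cells (horizontal axis) and in activated cells (vertical axis) at the sites called in naive cells and tested in both, 580 higher (red) and 850 lower (blue); the dashed line marks equal change. Of these, 289 higher and 493 lower sites were called in the same direction after activation.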

How the data were processed

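The authors deposited, for naive and for activated cells, a table of ATAC counts per site and library, and a table of RNA counts per gene. Both hold whole numbers that are not scaled. Per the submitters' processing notes the build is mm10; aligner, peak caller and counting are not given in the sources used here. The deposited fold, p-value and FDR of the ATAC tables were not used. Sites are the authors', shared by both tables, with coordinates as deposited.

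Counts were tested with edgeR 4.0.16 in R 4.3.3 (filterByExpr, TMM scaling, robust quasi-likelihood fit and test, Benjamini-Hochberg adjustment over all sites or genes tested, threshold 0.05). Naive and activated ATAC libraries had a fit each and a joint fit for the test of genotype by activation. RNA was fitted jointly over naive and activated libraries. The 1314 RNA features without a symbol, 0.145% to 0.159% of naive counts, were left out; 23885 of 25865 symbols matched a gene span. Log2 fold changes divide KO by WT and carry an SE, and levels are CPM of the TMM-scaled total. The test was run on simulated data before use.

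Sites were tied to genes within 10 kb of RefSeq gene spans of GRCm38.p6. That annotation gives spans without strand or exons, so exonic and intronic sites were not told apart. Promoter windows of chromosome 18 were not used here. Gene lists, members and rules were chosen with earlier results of these data known. The rule for named sites took the 10 largest changes in each direction whose higher group averaged 1 CPM or more, up to 4 sites with the smallest p per list, the strongest site at 15 core genes, and windows of 1 Mb with at least 5 called sites. The promoters described, the regions set aside and the RNA genes beside them were picked after their values were seen.

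Replicate numbers come from the labels. The tests reported were fitted without them, so their p-values and SEs take no account of pairing. Deviations from the group means correlated between same-numbered KO and WT naive ATAC libraries at 0.352, 0.254 and 0.182. For this reason, counts from a fit with the replicate number as a block are printed beside the main counts. Alternatives were other scalings, filters, tests and thresholds, and leaving out each library. Some results are not reported here.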

Additional observations from a re-analysis of the deposited data

Results flagged for a closer look

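The genotype difference itself changed with activation at 6182 of 110797 sites (5.58%) by the test of genotype by activation in the joint fit, 544 toward higher and 5638 toward lower values in KO cells after activation. With the replicate block the count was 10700. With library totals instead of TMM scaling, 2132 went toward higher and 5705 toward lower. The test uses the naive libraries that chose the sites below, so its values at the sites with the largest naive changes are descriptions.

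At Cd4 the difference was smaller after activation by 2.07 and 2.31 on the log2 scale at 2 sites (-2.07 ± 0.43 and -2.31 ± 0.21, adjusted p = 0.00675 and 2.36e-06). Activated KO libraries held 24.8 ± 1.47 CPM at the first and activated WT libraries 0.792 ± 0.0935 CPM. Around the interferon-inducible genes on chromosome 18 the differences between activated and naive changes were -4.15 and -3.02 at Gm4951, -3.60 at Gm4841, -3.25 at F830016B08Rik and -0.83 at Iigp1. On chromosome 3 they were -2.93 near Gm33707 and -3.02 at the Gm38326 promoter. In the other direction, the differences moved toward higher in KO cells near Fam234a (2.79), in Gm34974 (2.88), in Palld (2.33) and in Tceal3 (1.32).

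Among promoter or strongest sites that did not themselves pass in naive cells, the difference moved toward lower in KO cells at the strongest sites in Pde3b (-1.01 ± 0.11, adjusted p = 1.59e-05), Pde4d (-0.78 ± 0.10, adjusted p = 4.32e-05) and Il12rb1 (-0.79 ± 0.21, adjusted p = 0.0304) and at the Il12rb2 promoter (-0.76 ± 0.18, adjusted p = 0.012). At the strongest Stat4 site it moved toward higher (0.66 ± 0.10, adjusted p = 0.000501). The strongest Pde4d site had 48.1 ± 1.99 CPM in activated KO libraries and 85.9 ± 2.74 CPM in activated WT libraries, and 129 ± 12.6 CPM in naive KO libraries and 138 ± 11.3 CPM in naive WT libraries.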

How the results depend on the processing

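None of the 68 named sites tested in naive cells changed direction under the alternatives run. KO replicate 3 weighed most: without it 17 named sites missed the threshold. With DESeq2 5 did so and with limma-voom 4.

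Naive sites numbered 6171 with the replicate block, 3023 higher and 3148 lower, 658 at an adjusted p of 0.01 (203 higher, 455 lower) and 350 with an absolute log2 fold change of at least 1 (210 higher, 140 lower). DESeq2 gave 363 higher sites and the joint fit 1039. Without 1 library the total ran from 550 to 2207, the higher sites from 153 to 1009 and the lower from 397 to 1198. The share of higher calls was 38.8% in the fit reported, 45.3% with library totals and 60.7% in the joint fit. For genotype by activation, library totals gave 2132 sites toward higher, and the replicate block 10700 sites, 1642 toward higher and 9058 toward lower; without 1 library the total ran from 3674 to 8433, those toward higher from 304 to 825 and toward lower from 3320 to 7894. Naive RNA genes numbered 56 with the replicate block (33 higher, 23 lower), where same-numbered KO and WT libraries deviated together for number 1 (r = 0.393) but not for 2 and 3 (-0.0968 and -0.0019), and 23 were higher without a filter. Without 1 library the RNA total ran from 11 to 42, the higher genes from 6 to 23 and the lower from 4 to 23. The causes were not tested. The joint fit uses the spread of 12 libraries. Of 10114 sites under 1 CPM, 46 were higher and 9 lower.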
